A study of Rattus norvegicus with 12 samples.

Results

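Liver RNA of rats given didymin on a high-fat diet was compared with that of rats on the high-fat diet alone. The comparison covers the didymin arm whose count columns carry the letter G (arm G, libraries G.1, G.3 and G.4) and the model group (M.5, M.6 and M2.1), which are 6 of the 12 libraries of the study and were chosen by their column names. All animals were Sprague Dawley rats, an outbred stock. The model group ate a high-fat diet for 8 weeks, a way of bringing about non-alcoholic fatty liver disease, and arm G had the same induction plus didymin. The study also held a normal group given saline (N.1, N.2, N.3) and another didymin arm, lettered D (D.1, D.4, D.7), which serve here as reference. The didymin groups had a low and a high dose, but no label pairs a letter with a dose, so arm G is named by its letter. The labels tie neither a library to an animal nor a column to a numbered sample, so a p-value here reflects only how these libraries varied.

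Didymin is a citrus flavanone glycoside, the rutinoside of isosakuranetin. In fatty liver, hepatocytes store triglyceride, insulin and sterol signals set the activity of lipogenic genes through SREBP and ChREBP factors, and Kupffer cells, lymphocytes and stellate cells shape inflammation and scarring. The comparison asks which liver transcripts differ when didymin is added to the diet. Immediate early genes, which are transcribed soon after a stimulus without new protein synthesis, code for transcription factors such as AP-1 and for feedback regulators.

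The 6 libraries held between 12469914 counts (G.3) and 15521648 (M2.1). Hepatocyte identity was plain in all of them, with Alb, the gene of serum albumin, between 24398 CPM (read counts scaled to library size by TMM) in G.3 and 104914 in G.1. The 13 genes of the mitochondrial genome took 6.07%, 61.0% and 7.88% of the counts in G.1, G.3 and G.4, and 18.8%, 44.1% and 4.90% in M.5, M.6 and M2.1. The arm means differed by 2.34 percentage points, far less than the spread within either group (SD 31.2 in arm G and 19.9 in the model, n = 3 each; two-sided exact permutation test, p = 0.8, where 3 against 3 cannot go below 0.1). Without G.3 the difference turned to −15.7 points, and without M2.1 to −6.53 points. G.3 and M.6 also had the lowest summed level of the 26 hepatocyte markers (65793 and 106760 CPM, against 193960 to 234260 in the other 4 libraries). M2.1 is named unlike the other model columns, and the labels do not say why.

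**Figure D1:**
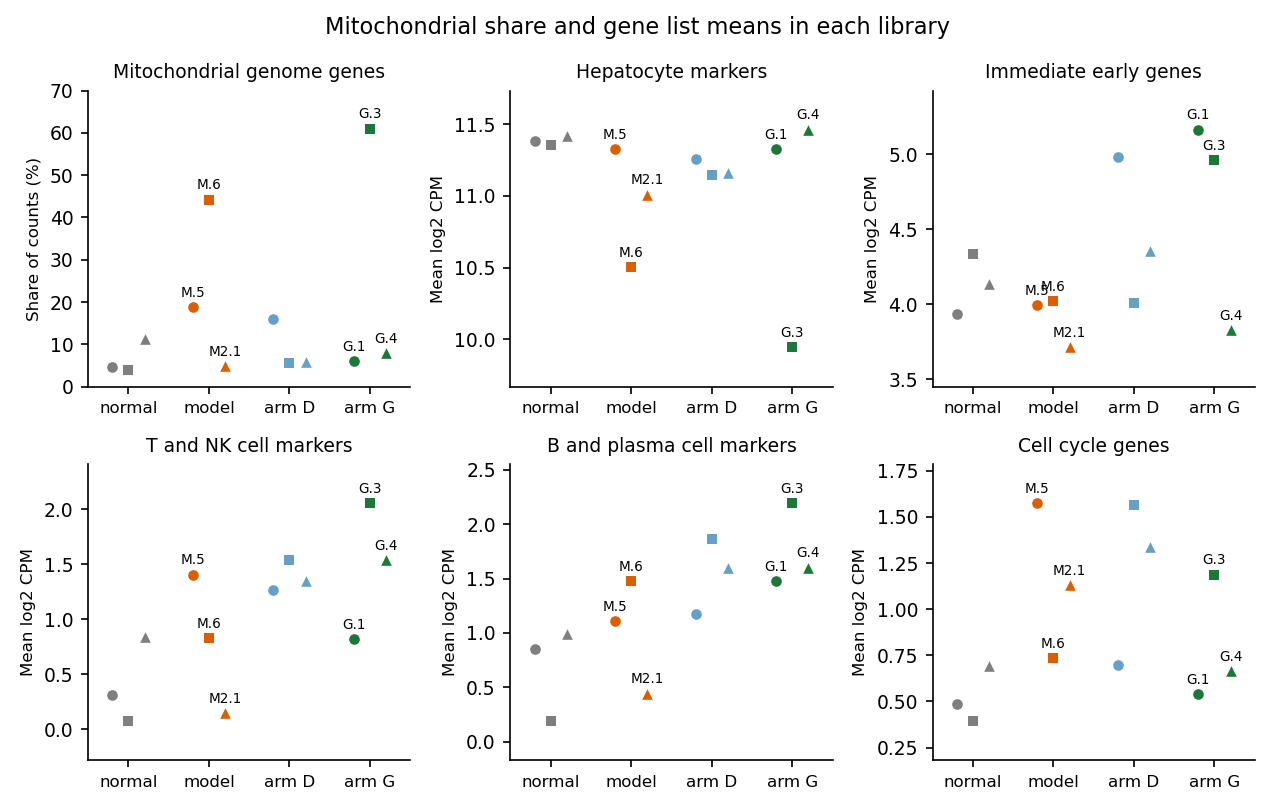
Mitochondrial share of counts (%) and mean log2 CPM of 5 gene lists (vertical axes) in each of the 12 libraries, grouped along the horizontal axis as normal, model, arm D and arm G, with 1 point per library. G.3 (61.0%) and M.6 (44.1%) stand far above the other libraries in mitochondrial share and lowest in hepatocyte markers.

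No gene passed the test of arm G against the model. Of 12355 genes tested with edgeR's quasi-likelihood test, 0 (0%) had an adjusted p under 0.05, and the smallest adjusted p was 0.9997. Unadjusted, 148 genes had higher levels in arm G at a p under 0.05 (1.20% of those tested) and 139 had lower levels (1.13%). The 3 arm G libraries all lay above the 3 model libraries for 322 genes (2.61%) and all below for 258 (2.09%), so a list of 40 genes would hold about 1 such gene per direction at the background share. Fold changes of all genes were centred, with a median of 0.0005 on the log2 scale and 50.04% above 0. DESeq2 called 5 of 12341 genes (0.0405%): Junb (adjusted p = 0.0192) and Bcl6 (0.0295) higher, and Zfp354a (0.0192), Eml5 (0.031) and the contig locus Rn50_5_0815.11 (0.031) lower. The authors' deposited table of this comparison, with 15941 genes, holds 1 gene with an adjusted p under 0.05 (0.00627%), Marveld1, at a log2 fold change of −2.74 and an adjusted p of 0.0106. The count at an unadjusted p under 0.05, 287 in all, became 921 without G.3 and 814 without M2.1. Since no gene passed by edgeR, the values that follow describe these 6 libraries, with fold changes (arm G over model, log2) given with the standard error of the edgeR fit.

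**Figure D2:**
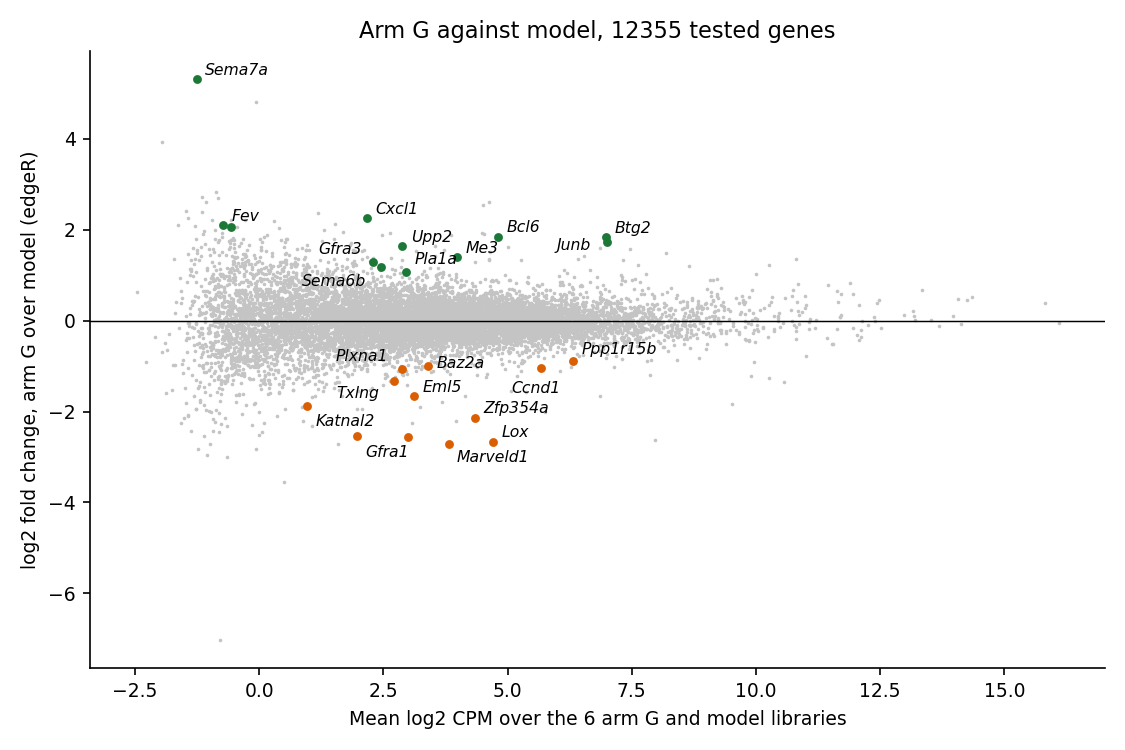
Log2 fold change of arm G over the model (vertical axis, edgeR) against mean log2 CPM over the 6 libraries (horizontal axis) for 12355 genes, with 1 grey point per gene. Green and orange points are the 12 genes with the smallest p in each direction, a pair of unnamed loci among them left without a label. Junb, Btg2 and Bcl6 are the leading genes of moderate to high level on the upper side, and Lox, Zfp354a and Ppp1r15b are among those on the lower side.

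Immediate early genes were mostly higher in arm G. Of 40 listed names, 36 were tested, 29 had a positive and 7 a negative log2 fold change, and the median was 0.78. For 8 of the 36 (Junb, Btg2, Fos, Egr1, Ier3, Jund, Dusp6 and Ier5) all arm G libraries lay above all model libraries, against 2.61% of all tested genes, and for 0 did they all lie below. At an unadjusted p under 0.05 there were 12 higher and 0 lower (1.20% and 1.13% of all tested genes), and 0 passed after adjustment. Of these 8 genes, 6 had a promoter in the RefSeq table, and Fos and Ier3 did not. The elements searched for were the cAMP response element TGACGTCA and its shortened form TGACG, which CREB factors bind, the CArG box of serum response factor, and the TATA box TATAAA. Shown are the 4 promoters that hold TGACG on either strand, while that of Ier5 held only a TATA box and that of Dusp6 held 0 matches. The promoters come from RefSeq (build GRCr8) and run from 250 bases before to 50 bases after the gene start, 5′ to 3′ on the gene's strand. Capitals mark every match to these elements on either strand.
Junb, chr19:40080876-40081175, + strand: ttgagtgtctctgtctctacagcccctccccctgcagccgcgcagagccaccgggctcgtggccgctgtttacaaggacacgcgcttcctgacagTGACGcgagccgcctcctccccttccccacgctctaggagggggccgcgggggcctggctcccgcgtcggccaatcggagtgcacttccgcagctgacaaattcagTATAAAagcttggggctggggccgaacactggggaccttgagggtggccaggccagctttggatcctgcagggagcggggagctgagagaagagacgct
Btg2, chr13:48087641-48087940, − strand: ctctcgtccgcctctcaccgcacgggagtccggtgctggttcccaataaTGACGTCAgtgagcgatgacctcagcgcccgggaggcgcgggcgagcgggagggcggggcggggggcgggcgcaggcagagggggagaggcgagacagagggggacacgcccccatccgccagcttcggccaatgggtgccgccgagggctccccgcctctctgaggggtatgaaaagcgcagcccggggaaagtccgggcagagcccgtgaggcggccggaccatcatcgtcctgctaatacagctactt
Jund, chr16:18769722-18770021, − strand: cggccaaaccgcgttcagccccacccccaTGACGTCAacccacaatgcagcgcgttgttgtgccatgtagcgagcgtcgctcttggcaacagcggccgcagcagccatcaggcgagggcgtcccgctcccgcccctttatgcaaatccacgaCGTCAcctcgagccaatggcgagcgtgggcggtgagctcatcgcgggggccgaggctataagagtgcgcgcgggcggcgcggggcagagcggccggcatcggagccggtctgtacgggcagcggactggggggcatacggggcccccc
Egr1, chr18:26736828-26737127, + strand: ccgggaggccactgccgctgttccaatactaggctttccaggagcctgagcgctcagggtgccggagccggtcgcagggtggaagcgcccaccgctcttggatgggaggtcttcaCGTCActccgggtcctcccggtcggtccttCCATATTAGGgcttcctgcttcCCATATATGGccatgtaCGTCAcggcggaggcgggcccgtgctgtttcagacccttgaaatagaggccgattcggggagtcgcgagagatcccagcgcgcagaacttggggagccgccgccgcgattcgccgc

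In the Btg2 window the full cAMP response element begins 201 bases before the gene start, and in the Jund window 221 bases before it. Junb has the shortened form 155 bases and a TATA box 49 bases before the start. Egr1 has CArG boxes that begin 105 and 83 bases before the start. Of the 36 tested immediate early genes 24 were in the promoter table, and the full element was in 16.7% of these against 1.91% of all 27457 promoters of that length. The shortened form, which also counts within the full element, was in 66.7% against 22%, the CArG box in 20.8% against 1.64%, and the TATA box in 20.8% against 14.3%. The AP-1 site TGANTCA was in 0% against 7.33%. These matches describe the sequence only.

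Junb, which codes for an AP-1 subunit, had 323, 245 and 162 CPM in G.1, G.3 and G.4 and 55.9, 108 and 56.3 CPM in M.5, M.6 and M2.1. Its lowest arm G library stood clear of its highest model library, and its log2 fold change was 1.73 (SE 0.35). Btg2, an antiproliferative early gene and p53 target, had 483, 147 and 151 CPM in arm G against 61.7, 72.8 and 83.3 in the model, a change of 1.84 (SE 0.47) in which G.1 stood far above the other 2 libraries. Fos, the partner of Jun proteins in AP-1, was at 80.7, 50.2 and 21.4 CPM in arm G and 4.62, 15.6 and 19.5 in the model (1.94, SE 0.63). G.4 and M2.1 nearly met for this gene. The zinc finger factor Egr1 was at 412, 246 and 147 CPM in arm G and 84.4, 103 and 131 in the model (1.34, SE 0.44), again with G.4 close to the model's highest library. Jund, an AP-1 subunit that many tissues express at rest, had 339.7, 200.2 and 144 CPM against 108, 132 and 112 (0.96, SE 0.34). The phosphatase gene Dusp6, which limits ERK signalling, had 98, 39.7 and 47.9 CPM against a narrow 32.4, 31.3 and 31.1 CPM in the model (0.97, SE 0.39). Ier3, a survival gene that stress and NF-kB induce, and Ier5 had log2 fold changes of 0.90 (SE 0.30) and 0.76 (SE 0.32).

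The high levels of G.1 and G.3 were not shared by G.4 in every member of the group. Nr4a1, a nuclear receptor of the same response, had 101, 136 and 7.41 CPM in arm G and 19.2, 13 and 8.13 in the model, so G.4 lay below every model library while its log2 fold change was 2.60 (SE 0.84). Jun had 1119, 434 and 195 CPM against 99.6, 312 and 208, and Egr2 6.32, 8.96 and 1.46 against 0.810, 0.90 and 2.39. The mean over the 36 genes was 5.16, 4.96 and 3.83 log2 CPM in G.1, G.3 and G.4 and 3.99, 4.02 and 3.71 in the model libraries, so G.4 lay within the model range. Without G.1 the list median was 0.58, and it was 0.86 without both G.3 and M.6, where the mitochondrial share was highest. In arm D, whose comparison shares the model libraries, the list median was 0.53 and Junb had 229, 140.2 and 174 CPM.

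**Figure D3:**
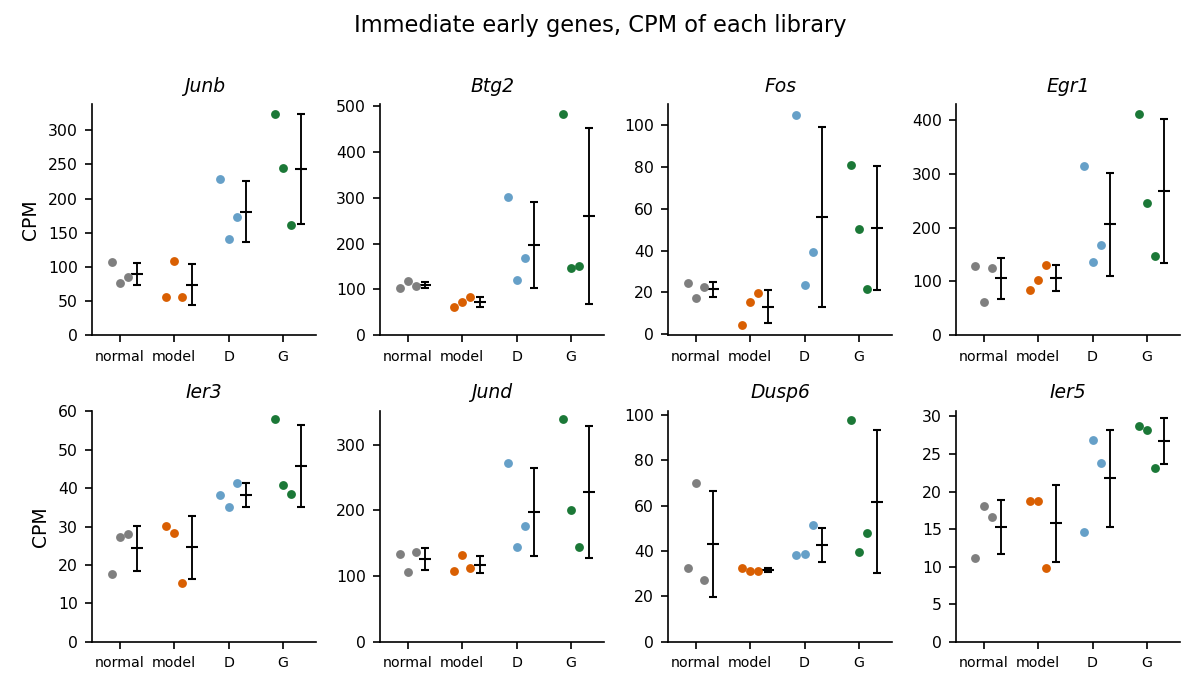
CPM (vertical axes, each from 0) of the 8 immediate early genes whose arm G libraries all lay above the model, for normal, model, arm D and arm G along the horizontal axis, with 1 point per library and a bar for the mean and SD (n = 3). In Btg2, Egr1 and Dusp6 the highest arm G point is G.1 (483, 412 and 98 CPM), and the other libraries of the arm lie nearer to the model.

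Among the other leading genes on the higher side, Bcl6, a transcriptional repressor that controls lymphocyte follicles and male-biased gene expression in liver, had 70.8, 71.9 and 26.5 CPM in arm G and 13.6, 22.1 and 11.2 in the model. All 3 arm G libraries exceeded every one of the other 9 libraries of the study, since arm D had 7.59, 8.95 and 5.93 CPM and the normal group 10.2, 14.4 and 13.1. The log2 fold change over the model was 1.85 (SE 0.39). Cxcl1, a chemokine that draws neutrophils, had 9.26, 6.13 and 15.3 CPM against 3.16, 2.43 and 0.922 (2.25, SE 0.62). Me3, the mitochondrial NADP-dependent malic enzyme, had 18.3, 22 and 39.6 CPM against 13.8, 7.47 and 9.16 (1.39, SE 0.41), with normal livers at 21.5, 24.6 and 16. Upp2, a uridine phosphorylase of liver, was at 23.7, 7.37 and 10.8 CPM in arm G and 2.51, 5.13 and 5.75 in the model (1.64, SE 0.50), and at 14, 22.2 and 10.6 in the normal group. For Me3 and Upp2 the arm G libraries overlapped the normal ones and lay above the model. Pla1a, a phosphatidylserine-specific phospholipase, had 12.2, 11.2 and 10.05 CPM against 6.56, 5.67 and 3.85 (1.06, SE 0.29).

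The remaining named genes on this side were of low level. Gfra3, a co-receptor for the GDNF family ligand artemin, had 7.03, 5.33 and 10.4 CPM against 3.16, 2.61 and 3.52 (1.29, SE 0.33). Sema6b, a transmembrane semaphorin, had 5.62, 12.6 and 6.72 CPM against 3.0, 3.78 and 4.12 (1.18, SE 0.35). Fev, an ETS factor best known from serotonin neurons, was near 1 CPM in arm G (0.958, 0.907 and 1.04) and below that in the model (0.405, 0.090 and 0.163). Sema7a, a membrane-anchored semaphorin, had 18, 24 and 3 counts in arm G and 0, 1 and 0 in the model, too few for a fold change. Normal liver had 6, 4 and 8 counts of it.

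On the lower side, Zfp354a, a KRAB zinc finger gene, had 13.4, 11.1 and 6.31 CPM in arm G and 33.1, 31.1 and 70.9 in the model, a log2 fold change of −2.13 (SE 0.44). Eml5, which codes for a microtubule-associated protein, was even within groups, with 4.60, 4.76 and 5.06 CPM in arm G, 15.7, 15.7 and 14.5 in the model and 9.54, 7.99 and 6.79 in the normal group (−1.67, SE 0.37). Lox, the lysyl oxidase that cross-links collagen and elastin, had 6.13, 10.9 and 20.2 CPM against 130.4, 21 and 84.4 (−2.66, SE 0.66), where G.4 and M.6 nearly met. Marveld1 had 6.0, 5.10 and 6.44 CPM in arm G and 30.9, 17.5 and 66.3 in the model (−2.71, SE 0.71), while the normal group, at 5.31, 14.1 and 27.8, spanned both. In arm D, measured against the same model libraries, Eml5 was at 3.05, 2.81 and 7.69 CPM, Zfp354a at 18.7, 8.43 and 8.71 and Lox at 37, 13.2 and 12.6. Gfra1, the co-receptor for GDNF, had 0.192, 1.81 and 3.95 CPM against 16, 7.29 and 11.6 (−2.55, SE 0.69), and arm D lay above both at 21.6, 23.6 and 20.03. Ccnd1, the G1 cyclin D1, had 38.4, 34.5 and 33.7 CPM against 77.4, 58.7 and 83.5 (−1.04, SE 0.28), and the normal group was at 42.3, 19.3 and 29.2. For Ccnd1 arm G thus overlapped normal liver. Ppp1r15b, a subunit that directs dephosphorylation of eIF2-alpha, had 64.8, 54.7 and 57.4 CPM against 119.7, 116 and 89.5 (−0.88, SE 0.24). Txlng, Plxna1 (a semaphorin co-receptor), Katnal2 (a katanin-like protein) and Baz2a (a subunit of the nucleolar remodelling complex) had log2 fold changes of −1.33, −1.06, −1.87 and −0.99, with no overlap between arm G and the model.

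**Figure D4:**
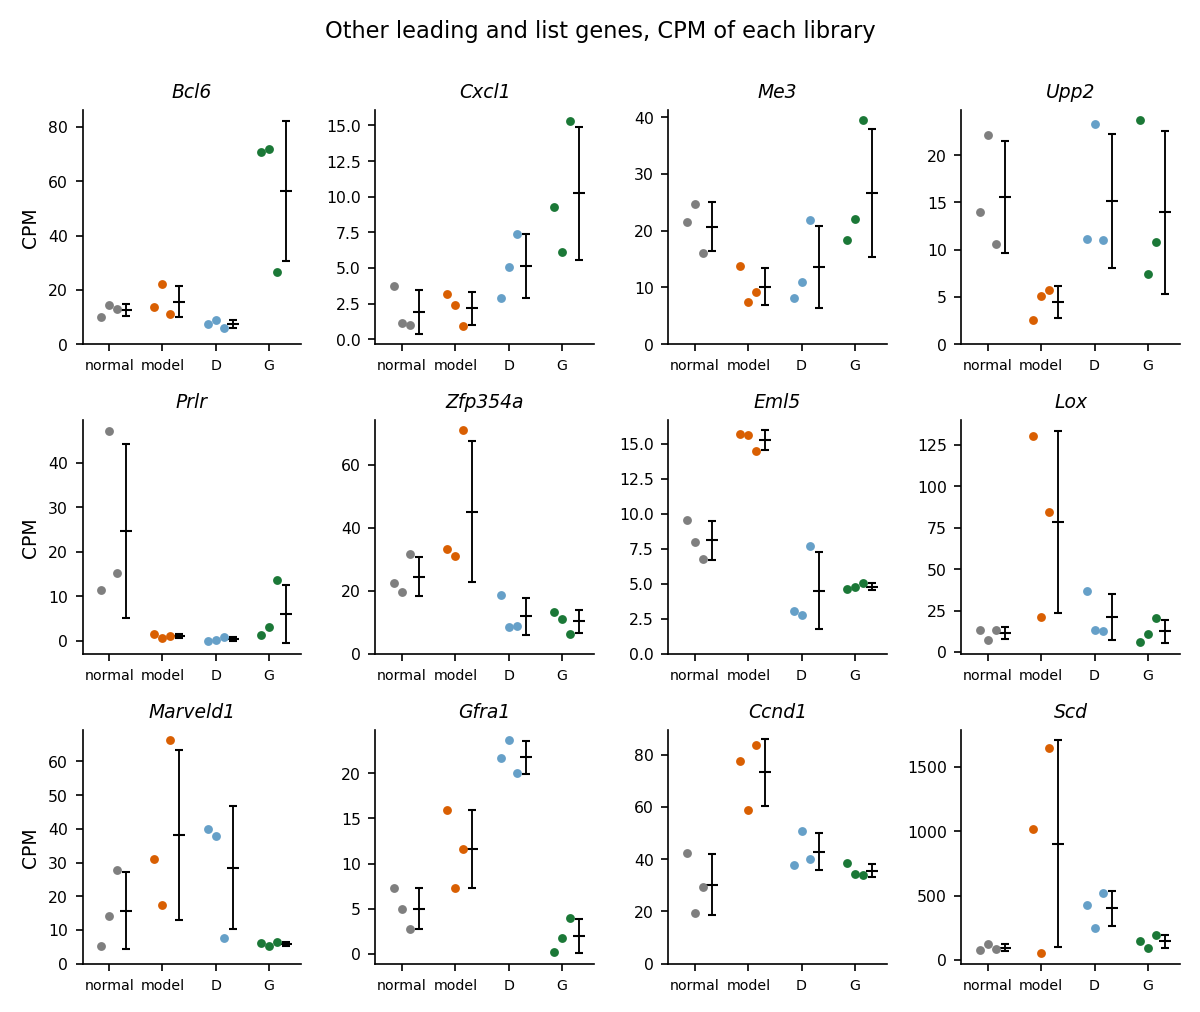
CPM (vertical axes) of 12 genes described in the text, for normal, model, arm D and arm G along the horizontal axis, with 1 point per library and a bar for the mean and SD (n = 3). Bcl6 is high in arm G alone (26.5 to 71.9 CPM, other libraries up to 22.1), Gfra1 is lowest in arm G and highest in arm D, and the arm G level of Prlr lies mostly in G.4, within the normal range.

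The growth hormone and sex-biased list, to which Bcl6 belongs, held 22 tested genes, of which 9 had a positive and 13 a negative log2 fold change. Only Bcl6 was higher and only Onecut1 lower in all arm G libraries, against 2.61% and 2.09% of all tested genes. Onecut1, the factor HNF6 of hepatocytes and bile ducts, had 1.47, 2.38 and 2.49 CPM in arm G, 6.08, 8.91 and 9.27 in the model and 48, 56.1 and 4.85 in the normal group (−1.94, SE 0.75). Prlr, the prolactin receptor, had 1.41, 3.18 and 13.6 CPM against 1.62, 0.720 and 1.14 in the model, with a fitted change of 2.38 (SE 0.92) and most of the arm's level in G.4. Normal livers had 11.5, 47.2 and 15.3 CPM. Socs2 and Cish, feedback inhibitors that STAT5 induces, overlapped between the groups: Socs2 had 10.3, 16 and 53 CPM against 146, 72.7 and 15.1, and Cish 2.24, 4.54 and 3.95 against 22.6, 6.57 and 1.41.

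Lipogenic genes did not separate the groups. Of 24 tested genes of fatty acid synthesis and desaturation, 8 were positive and 16 negative, and 0 separated arm G from the model. At an unadjusted p under 0.05, 1 was lower, against 1.13% of all tested genes. That gene was Scd, the stearoyl-CoA desaturase, with 149.8, 92.1 and 194 CPM in arm G and 1014, 54 and 1645 in the model. M.6 lay below every arm G library and the others far above, and the change was −2.64 (SE 0.82). Normal livers had 77, 125 and 88.6 CPM. Fasn, fatty acid synthase, was at 19.99, 28.9 and 15.5 CPM against 36.9, 13 and 54.5. Srebf1, the gene of the SREBP1 factors, had 140.4, 149 and 98 CPM against 174, 39.9 and 572, and its log2 fold change of −1.02 turned to 0.27 without M2.1. Of 25 key genes of fatty liver 23 passed the filter on low counts. None of the 23 lay higher in all arm G libraries.

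Genes of glucose metabolism and insulin response were spread around 0, with 17 of 42 tested positive and 25 negative. Ppp1r3b, which brings a phosphatase to glycogen, was at 59.5, 20.5 and 19 CPM against 104, 38.5 and 255, a change of −2.002 (SE 0.65) with overlap. Gapdh, a glycolytic enzyme often used as a reference gene, was at 48.4, 53.3 and 41.2 CPM against 142, 118 and 48.2.

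Cholesterol synthesis and uptake genes had mostly positive differences, with separated members in both directions. Of 28 tested, 22 were positive, the median was 0.30, 3 lay above the model in all arm G libraries and 1 below. Of all tested genes 2.61% lay above and 2.09% below. Tm7sf2, a sterol reductase, had 37, 12.5 and 22.7 CPM against 7.37, 5.49 and 11.4 (1.57, SE 0.54), far under the 106, 154 and 87 CPM of normal liver. Acat2, the cytosolic thiolase that makes acetoacetyl-CoA, had 1.66, 4.20 and 1.73 CPM against 1.05, 1.44 and 0.597, and Mvd, mevalonate diphosphate decarboxylase, 2.68, 3.86 and 3.40 against 2.35, 1.89 and 2.11. Nsdhl, a sterol dehydrogenase of the same pathway, went the other way with 172, 86.1 and 184 CPM against 205, 187 and 211 (−0.45). Hmgcs1, the enzyme before HMG-CoA reductase, had 149, 105 and 297 CPM against 409, 292 and 305. Leaving out G.1 brought the median of the list to 0.05.

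Fatty acid oxidation and bile acid genes were spread around 0. Of 37 tested PPAR-alpha targets and oxidation genes, 13 were positive and 0 separated the groups. Acot2, a mitochondrial thioesterase that PPAR-alpha induces, had 21.4, 19.2 and 45.9 CPM against 46.9, 179 and 30.9, where M.6 stood far above the other 5 libraries. Of 28 tested genes of bile acid synthesis and transport 13 were positive and 0 separated the groups. In the background of all tested genes 2.61% lay wholly above and 2.09% wholly below. Slc27a5, the bile acid-CoA ligase, had 1110.5, 227 and 688 CPM against 259.9, 307 and 311, with G.3 below the model and the other 2 well above it.

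Genes of the urea cycle and amino acid catabolism mostly had positive differences, though not evenly over the libraries. Of 48 tested, 36 were positive and 12 negative, with a median of 0.24. 4 lay above the model in all arm G libraries and 1 below, and at an unadjusted p under 0.05 there were 7 higher and 1 lower. Among all tested genes 2.61% lay above and 2.09% below, and 1.20% and 1.13% were higher and lower at that threshold. Oat, ornithine aminotransferase of pericentral hepatocytes, had a tight 295, 301 and 303 CPM in arm G and 228, 167 and 227 in the model (0.53, SE 0.22). Hpd, which degrades the tyrosine product hydroxyphenylpyruvate, had 2149.7, 2169.8 and 2229.6 CPM against 1601, 1170.5 and 1322 (0.68, SE 0.30). Aass, the first enzyme of lysine breakdown, had 117, 229 and 135 CPM against 80.4, 34.3 and 107, and Mat1a, which makes S-adenosylmethionine, 2449, 2561 and 1981 against 1941, 1814 and 1784. Psat1, an enzyme of serine synthesis rather than of breakdown, had 1.02, 0.567 and 0.624 CPM against 1.70, 2.88 and 1.36 (−1.39, SE 0.54). Amdhd1, which acts after histidase in histidine breakdown, had 44.4, 304 and 171 CPM against 61.8, 73.9 and 58.7, with G.1 below the model. Without both G.3 and M.6 the median of the list was 0.02.

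Markers of lymphocytes were mostly higher in arm G, at low levels. In bulk liver RNA, more cells of a type and more RNA per cell cannot be told apart. Of 28 tested T and NK cell markers 24 were positive, the median was 0.56, and 7 lay above the model in all arm G libraries. The share of all tested genes that lay above in this way was 2.61%. Klrk1, the NK receptor NKG2D, had 4.41, 7.71 and 4.50 CPM against 2.19, 2.43 and 3.47 (1.02, SE 0.47). All 16 tested B and plasma cell markers had a positive change (median 0.84), and 4 lay above in all arm G libraries. The B cell kinase Blk had 1.15, 2.04 and 1.39 CPM against 0.486, 0.810 and 0.813, and Mzb1, a chaperone of plasma cells, 2.17, 2.16 and 2.01 against 1.38, 1.44 and 0.108. Summed over the 32 T and NK markers in the tables, the level was 75.0, 139 and 111 CPM in G.1, G.3 and G.4 and 99.3, 81.5 and 47.2 CPM in M.5, M.6 and M2.1, which overlap. Summed over 21 B and plasma markers it was 184, 152 and 226 CPM in arm G and 118, 92.9 and 140.3 in the model. Much of this sum was 1 gene, Sdc1, at 123, 65.7 and 156 CPM in arm G and 66.4, 46.7 and 117 in the model. Sdc1 overlapped between the groups and had 138, 136 and 121 CPM in normal liver, so the sum says little about B and plasma cells. Ms4a1, the gene of CD20, had 7, 7 and 12 counts in arm G and 0, 4 and 8 in the model. Without G.3 the medians were 0.17 for T and NK markers and 0.47 for B and plasma markers. With the log2 mitochondrial share of each library as a covariate they were 0.55 and 0.82. In arm D, whose comparison shares the model libraries, the medians of these lists were 0.71 and 0.55, so the shift was not particular to arm G.

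Among innate immune genes, 24 of 25 tested Kupffer cell markers had a positive change (median 0.37). Only Itgal, an integrin of leukocytes, and Mrc1, the mannose receptor, lay above the model in all arm G libraries. So did 2.61% of all tested genes, the background for each list here. Itgal had 22, 21.1 and 22.4 CPM against 10.9, 11.9 and 15.8, and Mrc1 56, 62 and 54.7 against 53.3, 50.5 and 52.4, a small step of 0.15. In arm D, which shares the model libraries, the median of the Kupffer list was 0.98. Of 39 tested interferon response genes 34 were positive, with a median of 0.44 (0.49 in arm D over the same model libraries). 5 lay above in all arm G libraries, and 0 had an unadjusted p under 0.05. Ifit3, an interferon-induced antiviral protein, had 9.20, 14.3 and 8.38 CPM against 4.13, 8.19 and 7.10, and Irf1, an interferon-induced factor, 27.7, 36.8 and 33.8 against 21.4, 25.1 and 17.3. Of 31 tested Toll-like receptor and NF-kB genes 24 were positive and 0 separated the groups. Of 29 tested chemokine and cytokine feedback genes 18 were positive, and only Cxcl1 and Socs3, an inhibitor that STAT3 induces, lay above in all arm G libraries. Socs3 had 4.98, 2.38 and 8.59 CPM against 1.30, 2.07 and 1.30, with G.3 next to M.6. Of 11 tested neutrophil and monocyte markers 6 were positive, and Elane, a defining neutrophil gene, had 0 counts in all 6 libraries.

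Acute phase proteins, the plasma proteins that hepatocytes release in inflammation, mostly had a positive change in arm G, though not in each of its libraries. Of 26 tested, 23 were positive, with a median of 0.42 (0.62 in arm D over the same model libraries). 1 lay above the model in all arm G libraries, against 2.61% of all tested genes. It was the inter-alpha-trypsin inhibitor chain Itih3, with 4209.6, 3463 and 4917 CPM against 2582, 2286 and 3454. The complement gene C4a had 449, 123 and 443 CPM against 93.3, 78.2 and 169 (1.58, SE 0.54), and kininogen, Kng1, 1727, 832 and 3544 against 1004, 812 and 804 (1.22, SE 0.51). In both genes G.1 and G.4 stood high and G.3 lay near the model. Over the 26 genes the mean was 10.1, 8.75 and 10.4 log2 CPM in G.1, G.3 and G.4. In M.5, M.6 and M2.1 it was 9.71, 8.84 and 9.58, so G.3 lay below every model library. C4a has a near-identical copy, C4b, between which reads may have been split. Without G.4 the median of the list was 0.08.

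Cell cycle genes mostly had lower values in arm G. Of 40 tested, 29 were negative and 11 positive, and the median was −0.51. The mean over the 40 genes was 0.54, 1.19 and 0.66 log2 CPM in G.1, G.3 and G.4. In M.5, M.6 and M2.1 it was 1.57, 0.74 and 1.13, so G.3 lay within the model range. Against 2.09% of all tested genes below and 2.61% above, 3 lay below the model in all arm G libraries while 0 lay above. Beside Ccnd1 these were Rrm1, a ribonucleotide reductase subunit, with 8.37, 8.85 and 9.35 CPM against 13.8, 10.9 and 12.6 (−0.49, SE 0.21), and Top2a, a topoisomerase of dividing cells, with 1.15, 1.93 and 1.18 against 4.54, 2.16 and 1.95. Levels were low, as for Cdc20, an activator of the anaphase complex, at 0.958, 1.25 and 0.762 CPM against 4.21, 0.990 and 2.39. Normal livers had 0.768, 0.601 and 1.34 CPM of Top2a, near arm G. The median was −0.18 without M.5 and −0.99 without both G.3 and M.6. Of 20 tested cell cycle inhibitors and p53 targets 13 were positive. Only Btg2 and Cdkn1b lay above the model in all arm G libraries. Sesn1, a sestrin that p53 induces, had 19.5, 16.3 and 13.1 CPM against 9.32, 9.36 and 13.4.

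Stellate cell and matrix genes were split, with 17 of 38 tested positive and 21 negative. Lox, described above, and Mmp2, a gelatinase, lay below the model in all arm G libraries, and Thbs1, the matrix protein thrombospondin-1 that activates TGF-beta, lay above. The shares over all tested genes were 2.09% below and 2.61% above. Mmp2 had 8.81, 7.60 and 8.80 CPM against 13.9, 12.1 and 11.9 (−0.58, SE 0.28), and Thbs1 8.88, 6.81 and 5.34 against 1.94, 0.810 and 4.39 (1.53, SE 0.52). Of 20 tested clock genes 9 were positive. Nr1d1, the repressor REV-ERB-alpha, had 31.8, 15.2 and 16.6 CPM against 5.02, 3.69 and 14.9 (1.42, SE 0.53), with M2.1 near the arm. Clock lay lower in all arm G libraries at 41, 37.1 and 43.2 CPM against 47.2, 50.3 and 65.2, and Npas2, its paralogue, had 12.3, 24.4 and 11.7 against 35.9, 24.7 and 20.6. Times of sampling are not given in the labels.

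Several lists did not separate the groups at any member. No member of the heat shock (14 tested), nuclear-coded oxidative phosphorylation (65), cytosolic ribosomal protein (69), NRF2 and antioxidant (32), glucocorticoid response (21) and antigen presentation (16) lists lay wholly above or below the model. Over all tested genes 2.61% lay above and 2.09% below. Of the 65 oxidative phosphorylation genes 54 were negative and 11 positive, with a median of −0.21 that turned to 0.06 without M.5. Of 29 endoplasmic reticulum stress genes 12 were positive. Ern1, the sensor IRE1-alpha, lay lower in all arm G libraries (34.8, 23.1 and 33.6 CPM against 37.1, 42.6 and 50.9). Eif2ak3, the sensor PERK, lay higher in all (21.5, 15.3 and 16.7 CPM against 14.2, 14.8 and 15.1), with G.3 and M2.1 nearly meeting. Ppp1r15a, the stress-induced counterpart of Ppp1r15b, had 57.4, 59.2 and 14.5 against 14.3, 24.9 and 12. Of 27 cytochrome P450 genes 14 were positive, with Cyp2a1, a testosterone hydroxylase, at 1040.5, 890.3 and 1043 CPM against 758, 673 and 811. Of 31 conjugation enzymes 16 were positive, with the sterol sulfotransferase Sult2b1 at 1.85, 2.04 and 1.73 CPM against 8.10, 2.97 and 3.25 (−1.35, SE 0.47). Of markers of neighbouring tissue, Plin1 and Retn of adipose tissue had 0 counts in all 6 libraries. Car3, which adipose tissue and liver both express, had 915, 485 and 582 CPM against 1775, 828 and 1980.1.

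**Figure D5:**
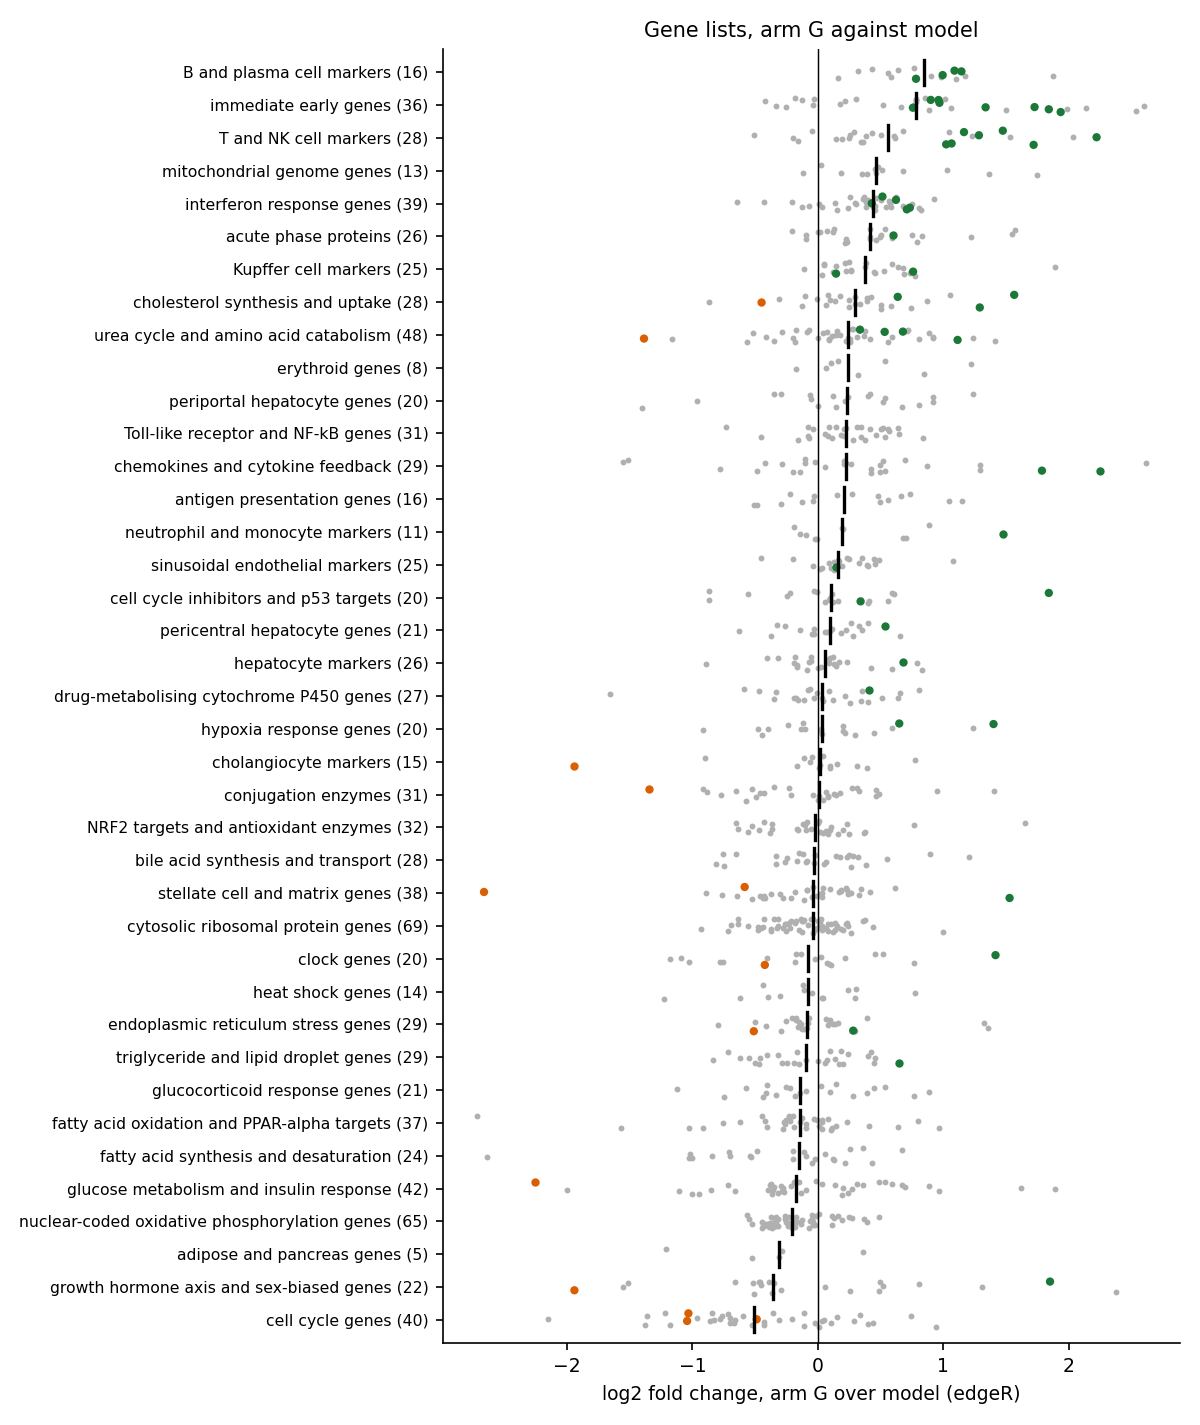
Log2 fold change of arm G over the model (horizontal axis, edgeR) for the tested members of 39 gene lists (vertical axis, number tested in brackets), with 1 point per gene and a black line at the median. Green and orange mark members whose arm G libraries all lay above or all below the model. The medians run from −0.51 for cell cycle genes to 0.84 for B and plasma cell markers.

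Set directly against the other didymin arm, arm G again had 0 of 12355 genes (0%) with an edgeR adjusted p under 0.05. At an unadjusted p under 0.05 there were 423 of the 12355. The smallest adjusted p, 0.114, was that of Bcl6, at a log2 difference of 2.91 (SE 0.40) between arm G and arm D. Without G.4, Bcl6 was the single gene that passed (edgeR adjusted p = 0.00765). DESeq2 called 5 genes in this comparison, named after their values were seen: Bcl6 and Prlr higher in arm G, and Gfra1, Hsd17b2 and Gpm6a lower. Hsd17b2, which oxidises estradiol and testosterone, had 57, 51.4 and 45.4 CPM in arm G, 134, 172 and 115 in arm D and 87.4, 44.5 and 87.6 in the model. Gpm6a, a neuronal membrane glycoprotein, had 2.30, 4.20 and 0.624 CPM in arm G and 19.9, 9.29 and 16.9 in arm D, with 11.1, 2.97 and 12.5 in the model. For all 5 genes the libraries of arm G and arm D did not overlap. The genes were called on these same libraries, so this was largely fixed by the choice. For Gfra1 and Hsd17b2 all arm D libraries lay above the model. Arm G lay below the model for Gfra1 and within its range for Hsd17b2.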

How the data were processed

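Rat liver RNA was extracted with Trizol and made into NEBNext Ultra libraries, per the labels' protocols. The authors deposited a table per comparison with read counts per gene, which are whole numbers and unnormalized per the file headers, and with their own log2 fold changes and p-values, raw and adjusted, which are quoted by name as the authors' deposited table. DESeq2 and the build mm9 stand in the submitters' processing notes, without versions. That build is of mouse while the gene names are rat symbols, so no coordinates of the files are printed. The sources used here do not give the aligner, the annotation or the strand setting. The 36 per-sample columns of other values were not used.

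Joining the deposited tables by gene name gave 16558 genes in 12 libraries. filterByExpr of edgeR 4.0.16 (R 4.3.3) left 12355. All 12 libraries entered 1 quasi-likelihood fit with TMM scaling, a mean per group, 8 residual degrees of freedom and a common biological coefficient of variation of 0.409. The Benjamini-Hochberg adjustment covered the whole table of tested genes, and 0.05 was the threshold. The standard error of a log2 fold change is its size divided by the square root of edgeR's F statistic. CPM use TMM-scaled library sizes, and list means are of log2 CPM with a prior count of 2. Library totals limit precision mainly near 1 CPM. DESeq2 1.42.0, limma 3.58.1, other scalings, no filter, a mitochondrial covariate and left-out libraries were the alternatives. Of the tested names, 11291 equal a RefSeq symbol. Members, lists and alternatives were chosen with earlier results of these data known. Genes are named as the 12 with the smallest p per direction, up to 8 members per list whose libraries separate and 3 further members, 25 key genes, and calls of DESeq2 or the deposited table. Tnf and Il6 did not pass the filter, and some named genes are not reported here. The list medians under the alternatives were added after the data had been seen.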

Additional observations from a re-analysis of the deposited data

How the results depend on the processing

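Against the model, edgeR called 0 genes in each of its settings and both limma-voom fits called 0, while DESeq2 called 5. The 287 genes at an unadjusted p under 0.05 became 1584 with sample quality weights in limma-voom, 110 with arm G and the model alone in the fit, 584 without G.3 and M.6 together and 667 with the mitochondrial share as a covariate, and between 314 and 921 with 1 library left out. The 580 genes whose libraries did not overlap became 3451 without G.3 and M.6 together and between 1157 and 2435 with 1 library left out, where fewer libraries have to separate. Against arm D, DESeq2 called 5 genes in place of 0, and leaving out 1 library gave between 0 and 1. The difference in mitochondrial share ran from −15.7 to 13.1 percentage points with 1 library left out, and was negative without M2.1 (−6.53) and without G.3 (−15.7). It was 21.2 counts per 100 nuclear counts on the other scale. Of 88 named genes, 81 had libraries that separated or an unadjusted p under 0.05, so that their direction was largely fixed by the choice. Srebf1 alone among the 88 changed direction under an alternative, to 0.27 without M2.1 (range −1.53 to 0.27 with 1 library left out), and the cause was not tested. The medians given for the immediate early, interferon, T and NK, B and plasma, Kupffer, cell cycle, cholesterol, amino acid and acute phase lists kept their direction in all 135 alternative values. These 9 lists were described with results known and the alternatives re-use the same libraries, so this too was largely fixed by the choice. Some values came near 0, with 0.02 for amino acid, 0.05 for cholesterol and 0.08 for acute phase genes. Over all 39 lists, 23 medians changed sign in at least 1 of the 8 settings that left out libraries or added the mitochondrial covariate. No paired analysis was possible because the count columns do not carry the replicate numbers of the labels. Genes near 1 CPM rest on about 9 to 18 counts per library, which limits their precision.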

Other observations

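Some genes were high in a single library. Among the 12355 tested genes, with a threshold chosen after the data had been seen, at least 5 CPM in a library and at least 4 times the next highest of the 12, G.3 held 14 such genes, M.6 3, M2.1 and D.4 2 each, and the other 8 libraries 0. Those of G.3 were of unlike tissues. They included Sstr3, a somatostatin receptor, at 17.9 CPM against at most 3.6 elsewhere, Trpv1, a cation channel of sensory neurons, at 10.5 against 2.19, Prdm9, a meiotic methyltransferase, at 13.95 against 3.24, and Grik5, a kainate receptor subunit, at 7.83 against 1.35. The myeloid gene Clec12a was also among them, at 7.15 against 1.51 CPM. The mitochondrial gene Mt-atp8 was at 12.6 against 2.52 CPM. Pax5, a B cell factor too low in most libraries to be tested and so not in these numbers, had 82 counts in G.3 and at most 12 in each of the other arm G and model libraries. In M2.1 they included Galr3, a galanin receptor, at 8.84 against 1.77 CPM. G.3 had the fewest nuclear counts of the 12 libraries, 4869054, and 61.0% mitochondrial counts. The part of either in these genes was not tested.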
